A study of Mus musculus with 15 samples.

Results

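The 8 genes described here (Cnot1, Cnot6, Cnot6l, Cnot7, Pan3, Dcp1a, Dcp2 and Ddx6) encode enzymes and partner proteins. These take part in removing the poly(A) tail or the cap from mRNAs after a miRNA has brought Ago2 to them. They were chosen by name, with earlier results of these data known. Every peak whose deposited gene symbol is among the 8 was taken, which gave 214 of the 75980 peaks in the 5 full lists, or 8 of 10668 gene symbols. Their peaks came from P19 cells, an embryonal carcinoma line of the mouse that serves as a stem cell model. Of 10 genes fixed as markers of such cells, 8 had a peak in at least 1 list, while Zfp42 and Dppa5a had none.

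miRNA silencing works through these proteins in steps. Argonaute proteins such as Ago2 carry the miRNA to a 3′UTR, GW182 proteins recruit the Ccr4-Not and Pan2-Pan3 deadenylases, and the shortened mRNA is then decapped by Dcp2 with its activator Dcp1a. The helicase Ddx6 binds the Cnot1 scaffold and links deadenylation to decapping. Sfpq is a largely nuclear RNA-binding protein of paraspeckles, and the question asked here is where Sfpq and Ago2 met the mRNAs of the silencing machinery itself, and which Ago2 peaks were lost or gained when Sfpq was depleted.

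HITS-CLIP sequences the RNA fragments crosslinked to an immunoprecipitated protein. The 15 libraries formed 5 groups with 3 replicates each: Ago2 was precipitated after siSfpq plus let-7a mimic, after siSfpq, or after let-7a mimic, and Sfpq was precipitated after siSfpq or in control cells. The cells that did not receive siSfpq or let-7a mimic received a control siRNA or a control mimic, and every group was a transient transfection of the same line. The replicates had been merged before peaks were called, so each peak carries 1 value, no spread between replicates can be given and no difference was tested. The mm10 lists are named here as follows. Ago2-let-7a peaks (4202) were stronger with let-7a mimic than without it, gained let-7a peaks (10264) were stronger with siSfpq and let-7a mimic than with let-7a mimic alone, and Sfpq peaks (29715) came from the comparison of siSfpq with control cells. These 3 lists carry a dCLIP score, the size of a difference between conditions, with a lowest listed value of 8. siSfpq Ago2 peaks (29734) and control Ago2 peaks (2065) carry a count of reads, of at least 10. The header of the siSfpq Ago2 list names both siCtr and siSfpq cells, and it was read as the peaks of siSfpq cells, as the study's methods describe it. A peak is called dismissed where the authors listed it as reduced with siSfpq, and kept where they did not. For Ago2-let-7a peaks their list also required no difference between siSfpq and control cells without mimic. A kept Ago2-let-7a peak may therefore still have been reduced with siSfpq. The methods describe no such further requirement for gained let-7a peaks. These are named for the cells compared and need not be sites of let-7a. Scores and reads cannot be compared between lists, since library totals were not used here.

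All 8 genes had Sfpq peaks, gained let-7a peaks and siSfpq Ago2 peaks, 6 had an Ago2-let-7a peak, and 2 had a control Ago2 peak. Of all 10668 gene symbols 46.4% had an Sfpq peak, 29.8% a gained let-7a peak, 82.7% an siSfpq Ago2 peak, 23.0% an Ago2-let-7a peak and 9.83% a control Ago2 peak. In 3′UTRs, 7 of the 8 genes had an Sfpq peak (20.8% of all symbols), 7 a gained let-7a peak (15.1%), 6 an siSfpq Ago2 peak (21.7%), 4 an Ago2-let-7a peak (7.11%) and 1 a control Ago2 peak (2.30%). The genes had been chosen with earlier results of these data known, so a high share of them with peaks is not a result about them. The 13 Ago2-let-7a peaks of the group held 12 that were dismissed with siSfpq, or 92.3% (95% Wilson interval 66.7 to 98.6%), where 80.2% of all Ago2-let-7a peaks were dismissed. The interval includes that background, so the share is not a result about these genes. By location, 5 of 6 peaks in 3′UTRs were dismissed (72.0% of all 3′UTR peaks), as were 2 of 2 exonic (76.8% of all) and 4 of 4 intronic peaks (94.2% of all). Of the 13 peaks the authors placed 7 in the class close to Sfpq (within 500 nt), 5 in the far class (500 to 7000 nt) and 0 in the very far class, which took 27.0%, 33.6% and 19.6% of all Ago2-let-7a peaks. Of the 3 control Ago2 peaks none was dismissed (0%, 95% interval 0 to 56.1%), against 30.4% of all control Ago2 peaks, and 3 peaks are too few to set these apart. Peaks of 1 gene share an mRNA, so these intervals cover counting error only.

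**Figure D1:**
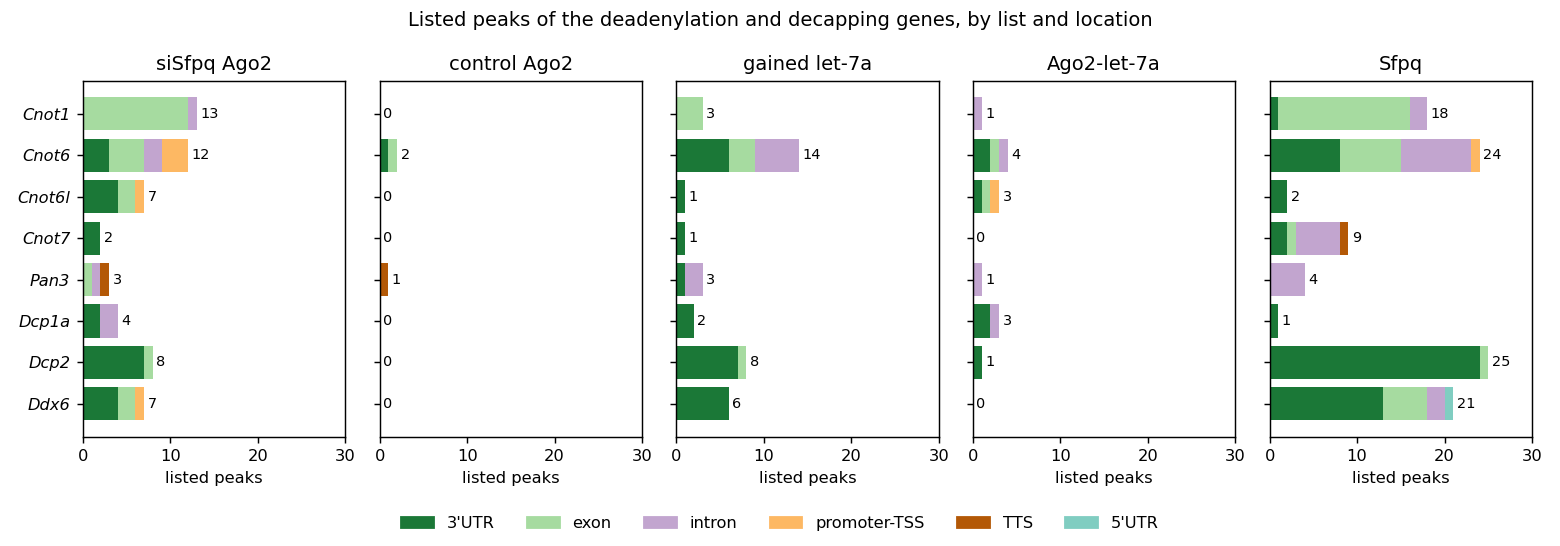
Number of listed peaks (x axis) for each of the 8 genes (rows), in 1 panel per list and coloured by genomic location, with the total at the bar end. Cnot1 peaks of the siSfpq Ago2 and Sfpq lists were mostly exonic, Dcp2 peaks lay almost wholly in the 3′UTR, and the control Ago2 panel holds 3 peaks in all.

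The let-7a mimic and the stem cell miRNA miR-302b are shown first, since the sites searched for below pair with their seeds (bases 2 to 8, in capitals; RefSeq, GRCm38.p6, the assembly of mm10).
let-7a-5p: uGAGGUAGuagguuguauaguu
miR-302b-3p: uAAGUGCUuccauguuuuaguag
None of the 6 Ago2-let-7a peaks in 3′UTRs of the 8 genes held the 6 nt match to bases 2 to 7 of let-7a (UACCUC, searched on the transcribed strand). Over all 987 Ago2-let-7a 3′UTR peaks 3.04% held it. Of the 24 gained let-7a 3′UTR peaks of the group 0 held it, where 1.99% of all 3675 did. The whole 3′UTRs of the 8 genes held 2 such matches, 1 each in Cnot6l and Dcp1a, and neither reached 7 nt. The Dcp1a match lay inside an siSfpq Ago2 peak, 128 nt from the higher Dcp1a Ago2-let-7a peak, and is shown with the match in capitals (chr14:30525830-30525859, plus strand).
Dcp1a: guucccuguuguUACCUCucuggggccccg
For miR-302b the same 3′UTRs held 15 matches of 6 nt (GCACUU), 8 of them inside an siSfpq Ago2 peak, 5 inside an Sfpq peak, 1 inside a gained let-7a peak and 0 inside an Ago2-let-7a or control Ago2 peak. Of the 22 siSfpq Ago2 3′UTR peaks of the group 7 held the match (31.8%, 95% interval 16.4 to 52.7%), where 14.8% of the 3970 siSfpq Ago2 3′UTR peaks searched did. Most of these 7 peaks were of Dcp2, so the share rests largely on a single gene. Among all 320 control Ago2 3′UTR peaks searched, 25.0% held the match. Dcp2 alone had 6 of the 15 matches, 5 of them 7 nt long. The sites below lay inside siSfpq Ago2 peaks and show the seed match in capitals, at chr11:49673033-49673062 (minus strand), chr5:96076647-96076676 (minus) and chr8:40493579-40493608 (minus).
Cnot6: gagaggggaggAGCACUUacucaucucugc
Cnot6l: cacauuaucaaAGCACUUaaauuugcuuga
Cnot7: accaucaaguuuGCACUUuagagagugauu
A match is a run of letters only and does not show which miRNA, if any, paired there. The transfected RNAs did not include miR-302b, which the paper describes as endogenous in P19 cells.

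Cnot1 is the scaffold on which the Ccr4-Not complex assembles. Its peaks lay mostly in the coding exons: 15 of 18 Sfpq peaks, 12 of 13 siSfpq Ago2 peaks and 3 of 3 gained let-7a peaks were exonic, where 22.0, 21.6 and 29.2% of all peaks of these lists were. The lists of all peaks include intergenic peaks, and the Cnot1 transcript has 49 exons and a 3′UTR of only 1476 nt. A preference for exons was not tested. The siSfpq Ago2 peaks ranged between 12 and 87 reads with a median of 20.0, and the highest was at chr8:95736252-95736435. The highest gained let-7a peak (score 26, chr8:95754990-95755034) lay 36 nt from an Sfpq peak of score 22, and the siSfpq Ago2 peak over the gained peak held 64 reads. The single Sfpq peak in the Cnot1 3′UTR had a score of 11, and that 3′UTR held no Ago2 peak of any list. The only Ago2-let-7a peak of Cnot1 was intronic (score 8, chr8:95796405-95796554), dismissed in the far class, and lay 5816 nt from the nearest Sfpq peak.

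Cnot6 encodes 1 of the exonuclease subunits of the complex and had the most Ago2-let-7a peaks of the group. Its 4 Ago2-let-7a peaks were 2 in the 3′UTR, 1 in the last coding exon and 1 in an intron, and 3 of the 4 were dismissed. The kept peak was the only kept Ago2-let-7a peak of all 8 genes. It had a score of 16 and started 29 nt after the stop codon (chr11:49675130-49675164). The dismissed exon peak beside it had a score of 19, ended 17 nt before the stop codon (chr11:49675210-49675354) and overlapped an Sfpq peak of score 15. The kept peak overlapped no Sfpq peak, and Sfpq peaks lay 61 nt away on either side. An siSfpq Ago2 peak with 113 reads (chr11:49675152-49675370) covered all 145 nt of the dismissed peak and 13 nt of the kept one. A control Ago2 peak of 10 reads overlapped the dismissed peak by 110 nt and was itself kept. Ago2 was listed over the end of the Cnot6 coding sequence in siSfpq cells without let-7a mimic, at a peak listed as reduced by siSfpq in cells with it.

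The other dismissed 3′UTR peak of Cnot6 (score 8, chr11:49673145-49673184) overlapped an Sfpq peak by 15 nt, and a gained let-7a peak of score 14 lay 101 nt away. The remaining peak was intronic (score 14, chr11:49709105-49709194) and overlapped the Sfpq peak with a score of 28, which with another of 28 was the highest of Cnot6. Gained let-7a peaks lay 86 nt and 286 nt from that intronic peak. Of the 6 gained let-7a peaks in the 3′UTR (scores 10 to 19), 5 overlapped an Sfpq peak and 5 overlapped an siSfpq Ago2 peak. Each of the 3 exonic gained let-7a peaks overlapped an Sfpq peak. They included the highest gained let-7a peak of Cnot6 (score 21, chr11:49679945-49680009). The 3 siSfpq Ago2 peaks in the 3′UTR held 134, 105 and 37 reads, and all 3 overlapped an Sfpq peak. The control Ago2 peak in the 3′UTR held 11 reads and lay within the siSfpq Ago2 peak of 105 reads.

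The centres of the 3′UTR Ago2-let-7a peaks of Cnot6, Cnot6l and Dcp1a are printed, 1 kept and 4 dismissed, to show the letters under such peaks. Capitals mark the words reported for Sfpq, CUGU, CUGA and NUGUA, where CUGUA counts under both CUGU and NUGUA. The windows are at chr11:49675132-49675161 (kept) and chr11:49673150-49673179 (dismissed), chr5:96074760-96074789, chr14:30525637-30525666 and chr14:30524732-30524761. The last line is the centre of the Sfpq peak with the highest score of the 8 genes, in Ddx6 (chr9:44637410-44637439).
Cnot6, kept: aacucgugaaaauCUGAauauaggagagua
Cnot6, dismissed: gugcaucaugacaauuuccagggaaggugg
Cnot6l, dismissed: ugaUUGUAuaugaaccacagaggagcccau
Dcp1a, dismissed, score 19: gguccauCUGUAuacacaccccacccccuc
Dcp1a, dismissed, score 8: ggcuugugCUGAucucaccaugcuuccugg
Ddx6, Sfpq peak: cguagaaaauuggauGUGUAuacUUGUAua
Among the Ago2-let-7a peaks, a word stood in the kept window and in 3 of the 4 dismissed ones shown. Over all Ago2-let-7a 3′UTR peaks of at least 30 nt, 46.1% of such central windows held a word, and over all Sfpq 3′UTR peaks 50.6% did. The windows shown leave out the dismissed 3′UTR peak of Dcp2. Over its whole 95 nt that peak held 2 CUGU or CUGA words and 4 NUGUA words.

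Cnot6l, the close paralog of Cnot6, had 3 Ago2-let-7a peaks and all 3 were dismissed in the close class. The 3′UTR peak (score 9, chr5:96074750-96074799) overlapped an Sfpq peak of score 8 by 40 nt. The peak annotated as exonic (score 10, chr5:96077155-96077209) spanned the stop codon, with 30 nt in the coding sequence and 25 nt in the 3′UTR. It lay inside an siSfpq Ago2 peak of 57 reads and 106 nt from the only gained let-7a peak of Cnot6l (score 16). The promoter peak had a score of 8 (chr5:96161455-96161509). Although both of these were classed as close, the nearest listed Sfpq peaks were 2341 nt from the exonic peak and 86641 nt from the promoter peak. Such peaks made up 2 of the 7 close peaks of the group and 27.3% of all dismissed Ago2-let-7a peaks classed as close.

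The 3′UTRs of both paralogs share a stretch that carried peaks in each. When the window of the Cnot6l peak above was laid on the Cnot6 3′UTR without gaps, 25 of 30 letters matched at the best place and 16 at the next best. That place (chr11:49674730-49674759) lay within the Sfpq peak of Cnot6 with a score of 25 and within a gained let-7a peak of score 18.
Cnot6: ugaUUGUAuaugauccacagaagacCUGAu
In Cnot6l the same stretch held the dismissed Ago2-let-7a peak and an Sfpq peak, and its nearest gained let-7a peak was 2211 nt away. The longest run of identical letters that both 3′UTRs shared was 16 nt. Whether any reads of this stretch were placed on the wrong gene was not tested.

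Cnot7, another catalytic deadenylase subunit, had no Ago2-let-7a and no control Ago2 peak. Its 9 Sfpq peaks were mostly intronic (5), with scores of 8 to 20. It had 2 Sfpq peaks listed as 3′UTR, of scores 8 and 13, and each was overlapped by an siSfpq Ago2 peak, of 18 and 17 reads. Another Sfpq peak (score 13, chr8:40492615-40492649) was listed at the transcription termination site. It lay inside the annotated 3′UTR, 565 nt from the nearest siSfpq Ago2 peak. The only gained let-7a peak (score 13, chr8:40493870-40493909) lay 246 nt from an Sfpq peak.

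Pan3 binds the Pan2 nuclease, which begins deadenylation, and had 1 listed peak in its 3′UTR. It had 4 Sfpq peaks, all intronic, with scores of 8 to 9. Its single Ago2-let-7a peak (score 9, chr5:147447280-147447369) was intronic and dismissed in the far class, though the nearest listed Sfpq peak was 7896 nt away and the limit of that class was 7000 nt. The only gained let-7a peak in its 3′UTR had a score of 12. The control Ago2 peak listed for Pan3 (13 reads, chr5:147549201-147549222) lay past the end of the gene on the opposite strand, and an siSfpq Ago2 peak of 19 reads overlapped it. The siSfpq Ago2 peak with most reads was exonic (56 reads, chr5:147526951-147527038).

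Dcp1a, the activator of the decapping enzyme, had 3 Ago2-let-7a peaks, all dismissed in the far class. The 2 in the 3′UTR had scores of 8 (chr14:30524705-30524789) and 19 (chr14:30525590-30525714), and an intronic one had a score of 8 (chr14:30522120-30522159). The score of 19 equalled the highest of the group, that of the Cnot6 exon peak. These 3 peaks lay between 1021 and 4576 nt from the only Sfpq peak of Dcp1a (score 9), near the 3′ end of the transcript. Gained let-7a peaks, 2 with a score of 11 each, lay downstream of the dismissed peaks, and 1 of the 2 overlapped that Sfpq peak. The 2 siSfpq Ago2 peaks in the 3′UTR (27 and 21 reads) overlapped neither the dismissed nor the gained peaks, and the nearer one was 44 nt from the peak of score 19.

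Dcp2, the decapping enzyme, had the most Sfpq peaks of the group: 24 in the 3′UTR (scores 9 to 28) and 1 in an exon. Only 0.855% of the 2221 genes whose 3′UTR held Sfpq peaks had at least as many. Such counts depend on how neighbouring peaks were split. With Sfpq peaks within 50 nt merged, the 3′UTRs of the whole group held 37 in place of 51. The place of Dcp2 among the 2221 genes was not recomputed with merged peaks. Nor was it adjusted for 3′UTR length, and the paper reports that Sfpq favours long 3′UTRs. The 24 listed peaks covered 53.0% of the Dcp2 3′UTR of 7240 nt. Its only Ago2-let-7a peak (score 8, chr18:44421605-44421699) was dismissed in the close class and lay wholly inside an Sfpq peak of score 15. The 7 gained let-7a peaks of the 3′UTR (scores 11 to 22) all overlapped an Sfpq peak and lay between 601 and 2605 nt after the stop codon, and the nearest was 1271 nt from the dismissed peak. The 7 siSfpq Ago2 peaks of the 3′UTR held 16 to 101 reads, with a median of 38.0, and all 7 overlapped an Sfpq peak, as did 15 of the 22 of the whole group (68.2%, 95% interval 47.3 to 83.6%) and 47.6% of all siSfpq Ago2 3′UTR peaks, a share that the interval includes. Of the 1714 nt that they covered, 80.5% lay in Sfpq peaks. Dcp2 had no control Ago2 peak.

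Ddx6, the helicase that joins the deadenylase and decapping steps, had no Ago2-let-7a and no control Ago2 peak, so no peak of it could be dismissed. It had 13 Sfpq peaks in the 3′UTR, and 4.50% of the same 2221 genes reached that number, again without adjustment for 3′UTR length or split peaks. The Sfpq peaks with scores of 57 (chr9:44637380-44637469) and 47 (chr9:44637540-44637604) were the highest of all 8 genes. The siSfpq Ago2 peak over both held 117 reads (chr9:44637300-44637587), and it also overlapped gained let-7a peaks of scores 16 and 17. The centre of the peak with a score of 57, printed above, held the words GUGUA and UUGUA. In all, Ddx6 had 6 gained let-7a peaks, each in the 3′UTR and within 500 nt of an Sfpq peak, and 3 overlapped one. The highest of the 6 (score 19, chr9:44637175-44637234) lay 111 nt from the nearest Sfpq peak. Of the 2221 genes, 76.5% had neither an Ago2-let-7a nor a control Ago2 3′UTR peak, and of those 42.0% had a gained let-7a 3′UTR peak, as Ddx6 did.

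**Figure D2:**
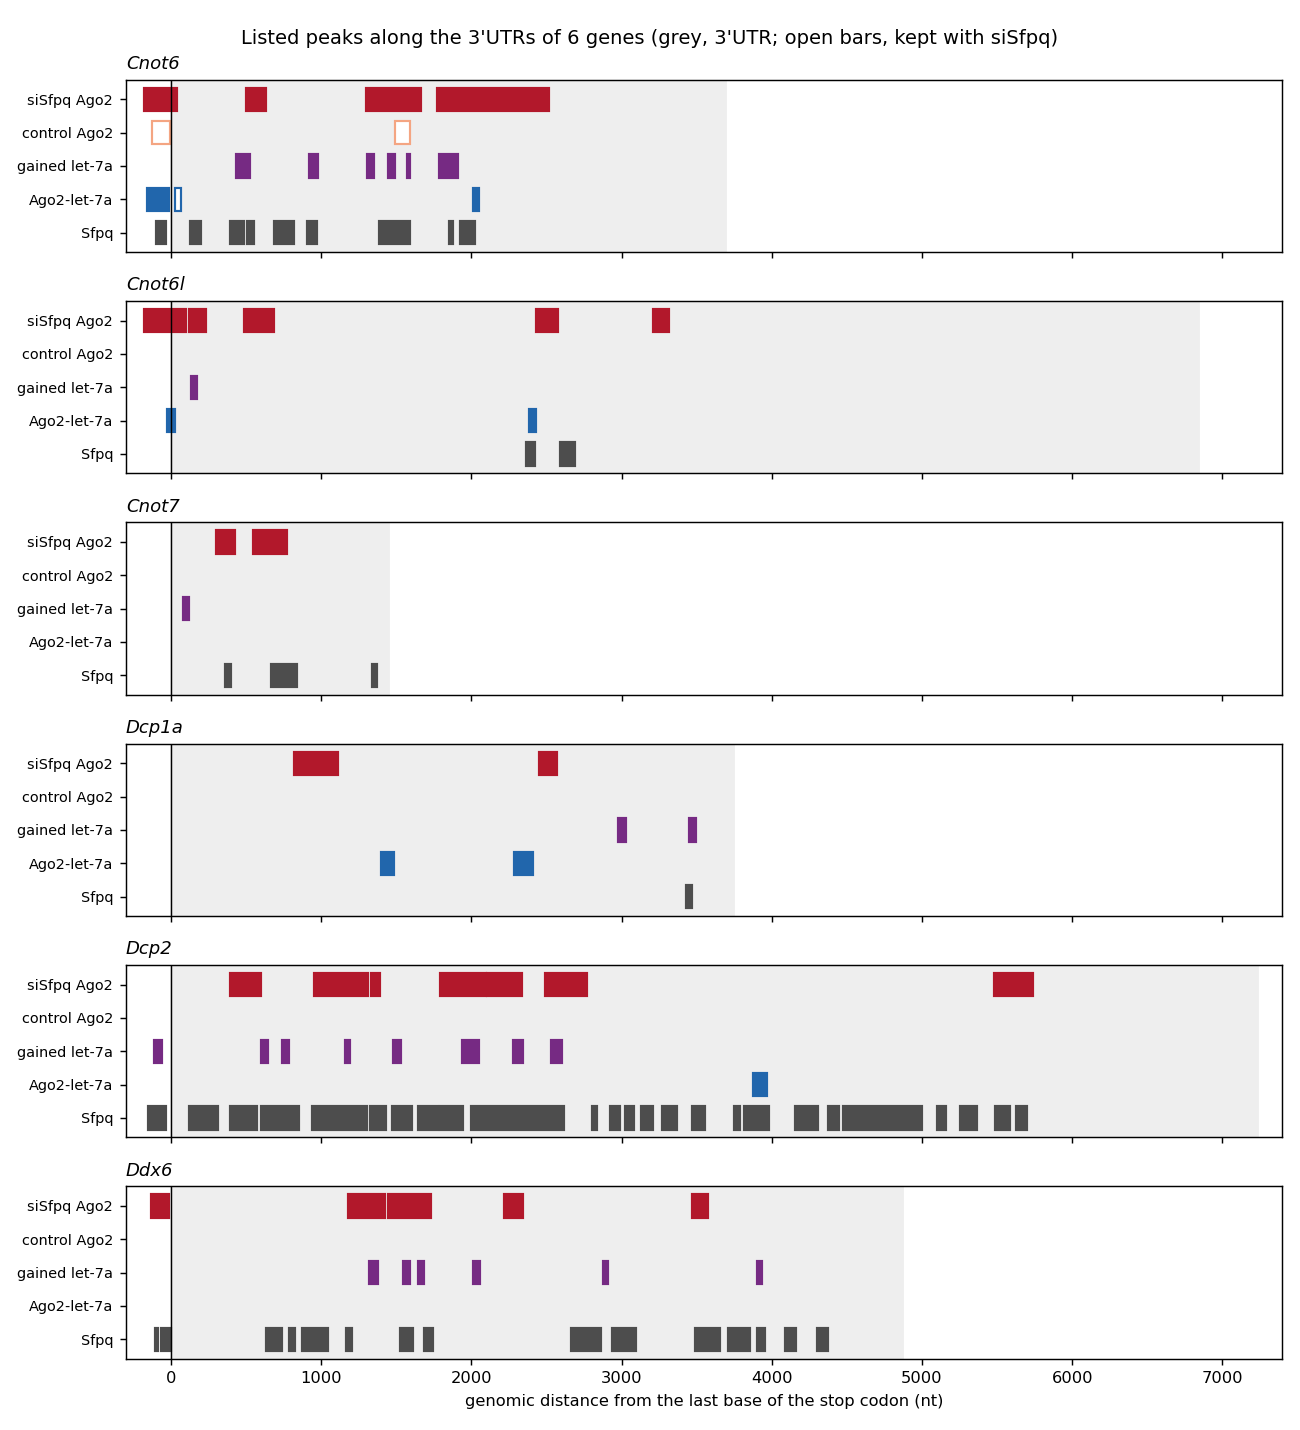
Listed peaks on the sense strand around and after the stop codon of 6 genes, 1 row per list, against genomic distance from the last base of the stop codon in nt (grey, annotated 3′UTR, which for Ddx6 includes an intron). Open bars are kept Ago2-let-7a or control Ago2 peaks, and filled Ago2-let-7a bars are dismissed. In Dcp2 the gained let-7a peaks lie upstream of the dismissed Ago2-let-7a peak, and in Dcp1a downstream of both.

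By location, 24 of the 38 gained let-7a peaks of the group were in 3′UTRs (63.2%, 95% interval 47.3 to 76.6%; 35.8% of all gained let-7a peaks), as were 51 of 104 Sfpq peaks (49.0%, 39.6 to 58.5%; 26.9% of all) and 22 of 56 siSfpq Ago2 peaks (39.3%, 27.6 to 52.4%; 13.4% of all). For the Ago2-let-7a peaks it was 6 of 13 (46.2%, 23.2 to 70.9%; 23.5% of all), and for the control Ago2 peaks 1 of 3 (16.4% of all). The lists of all peaks include intergenic peaks, which a list of genes cannot hold. Without Dcp2, 34.2% of the Sfpq peaks were in 3′UTRs.

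The gained let-7a peaks in 3′UTRs lay on or beside Sfpq peaks in 22 of 24 cases (within 500 nt, 91.7%, 95% interval 74.2 to 97.7%; 75.1% of all gained let-7a 3′UTR peaks), and 16 of 24 overlapped one (66.7%, 46.7 to 82.0%; 46.4% of all). The first interval includes the share over all such peaks and the second starts just above it. Of the 24 peaks 7 were of Dcp2, and all 7 overlapped an Sfpq peak. Peaks of 1 gene share an mRNA, so neither interval sets these genes apart. Of the 38 gained let-7a peaks of the group 19 overlapped an siSfpq Ago2 peak, from cells without mimic (50.0%; 50.9% of all gained let-7a peaks). No gained let-7a peak of the 8 genes overlapped an Ago2-let-7a peak (0 of 38), as 1.30% of all gained peaks did. Dismissed and gained peaks are opposite directions of the same comparison, so they cannot overlap by much. Of the 5 dismissed 3′UTR peaks, 1 had a gained let-7a peak within 500 nt, that of Cnot6 (41.5% of all dismissed 3′UTR peaks), and of all 12 dismissed peaks 4 did (17.0% of all). An Sfpq peak was listed at 500 nt or less from 4 of the 6 Ago2-let-7a peaks in 3′UTRs (56.0% of all such peaks): both of Cnot6 and those of Cnot6l and Dcp2, but neither of Dcp1a.

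**Figure D3:**
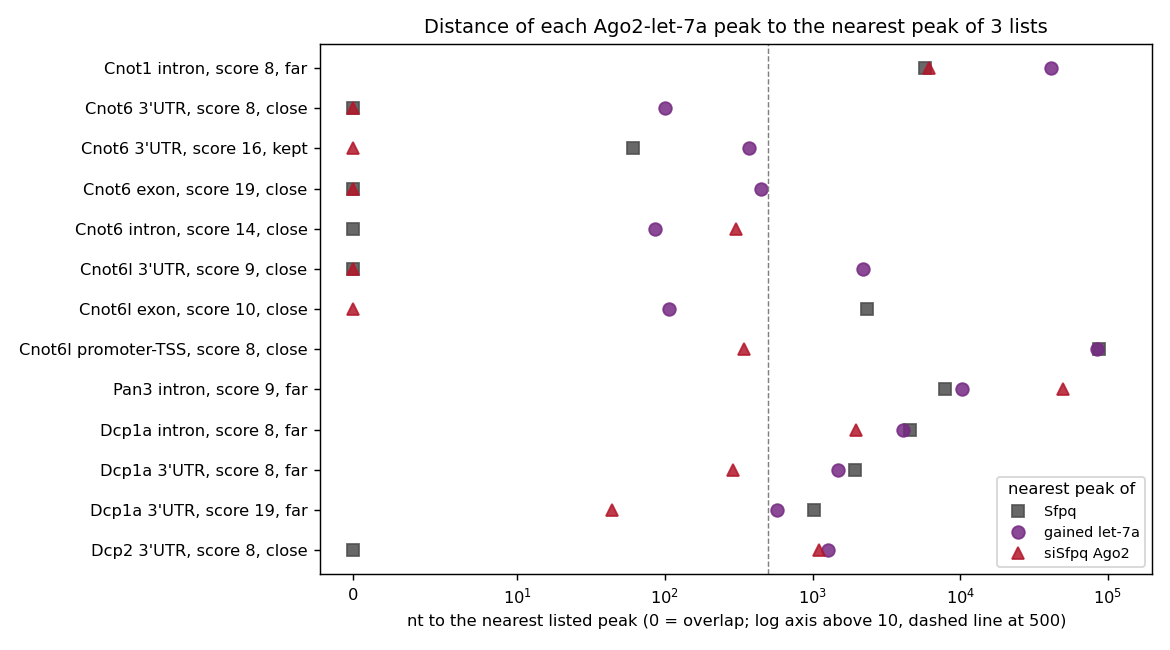
Distance in nt (log axis above 10, overlap at 0) of each of the 13 Ago2-let-7a peaks to the nearest Sfpq (grey squares), gained let-7a (purple circles) and siSfpq Ago2 peak (red triangles), with the location, score and class of each peak at the left. Of the 13 peaks, 5 overlapped an Sfpq peak, 5 an siSfpq Ago2 peak and none a gained let-7a peak.

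Without let-7a mimic, the 3 control Ago2 peaks of the group were each overlapped by an siSfpq Ago2 peak (80.4% of all control Ago2 peaks were). Of the 12 dismissed Ago2-let-7a peaks 4 were overlapped by an siSfpq Ago2 peak, where 17.1% of all dismissed peaks were. These were the dismissed 3′UTR and exon peaks of Cnot6 and Cnot6l, and the overlap at the Cnot6l 3′UTR peak was 1 nt. The share over all dismissed peaks covers every location, and 1422 of those 3369 peaks were intronic. A share matched for location is not given. The siSfpq Ago2 list is about as long as the Sfpq list and far longer than the control Ago2 list, whose header names mimic Ctr and siCtr cells while the study's methods cite earlier work on P19 cells for it. Libraries of that condition were not analysed here. A greater number of siSfpq than control peaks in these genes cannot be told apart from the length of the lists.

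**Figure D4:**
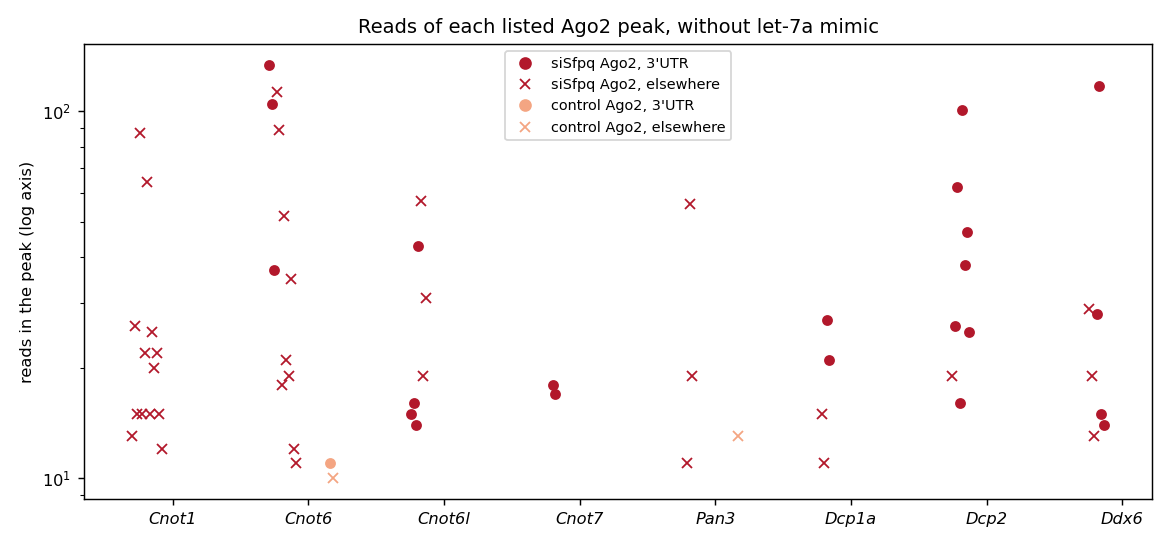
Reads in each listed Ago2 peak of cells without let-7a mimic (log axis), by gene, for siSfpq cells (red) and control cells (orange), with circles for 3′UTR peaks and crosses for other locations. The highest peak of a gene was that of Cnot6 (134 reads), followed by those of Ddx6 (117 reads) and Dcp2 (101 reads), in siSfpq cells, and the 3 control peaks held 10 to 13 reads. The lists come from libraries of unknown total, so heights are not to be compared between the colours.

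The rest of the pathway was read from a list of 43 further genes for deadenylation, decapping and their regulators, of which 35 had a peak. In their 3′UTRs, 9 of the 35 had a gained let-7a peak, 13 an siSfpq Ago2 peak, 10 an Sfpq peak, 2 a control Ago2 peak and 0 an Ago2-let-7a peak, where the shares of all gene symbols above were 15.1, 21.7, 20.8, 2.30 and 7.11%. Of the 8 Ago2-let-7a peaks of these genes 4 were dismissed (80.2% of all), and of the 6 control Ago2 peaks 4 were (30.4% of all). The control 3′UTR peaks were those of Pabpc1, a poly(A)-binding protein, and Btg1, an antiproliferative partner of the Ccr4-Not nucleases, and both were dismissed. The genes with the most 3′UTR peaks over all 5 lists were Zfp36l2 (9), an AU-rich element binding protein that recruits Ccr4-Not, Tob2 (7), a partner of Ccr4-Not, and Pnrc1, Lsm14b and Btg1 (6 each). Among the 8 genes Dcp2 (39), Ddx6 (23) and Cnot6 (20) had more than any of these, while Cnot6l (8), Dcp1a (7), Cnot7 (5), Cnot1 and Pan3 (1 each) did not. The counts were not adjusted for 3′UTR length or for split peaks. The 8 genes were also chosen with earlier results of these data known, so this order is not a result about them.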

How the data were processed

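Reads were trimmed, mapped to mm10 and merged over replicates by the authors, with cutadapt, STAR and Bowtie2 named in their notes (versions not given in the sources used here). Per peak, the deposited full lists hold a dCLIP score (threshold 7 per the file headers) or, from pyicoclip, a read count (minimum 10 per the file headers), with location, RefSeq accession and gene symbol. The 6 lists of dismissed peaks hold coordinates only and, per the authors, used a Jaccard index of 0.1. Dismissed Ago2-let-7a peaks also had to show no difference between siSfpq and control cells without mimic, while dismissed control Ago2 peaks were only required to be reduced. Total reads per library were not used, so the depth behind a peak is unknown.

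Here peaks were selected by gene symbol, and no peak stood under an older symbol of the 8 genes. Of the 214 peaks, 211 lay in the RefSeq span of their gene (GRCm38.p6). Dismissed peaks were matched to the full lists by exact coordinates. Overlap means at least 1 nt on the same strand, and distance was measured edge to edge on either strand. The main shares carry 95% Wilson intervals, small counts carry none, and no test was run. The interval code was tested on simulated peaks. Python 3 with pysam and matplotlib was used. All 8 genes are named with every Ago2-let-7a and control Ago2 peak and their highest other peaks. Further pathway genes are named where a 3′UTR peak was dismissed or where they are among the 5 with the most 3′UTR peaks. The genes and lists were chosen with earlier results of these data known.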

Additional observations from a re-analysis of the deposited data

How the results depend on the processing

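No paired analysis was possible because the lists hold 1 merged value per peak and none per replicate, and for the same reason no replicate could be left out. Over 10 results and 23 alternatives, 21 stayed within the interval of the share or within 1.5 times the count. With a limit of 1000 nt in place of 500 nt, 2 of the 5 dismissed 3′UTR peaks had a gained let-7a peak nearby, in place of 1. Without Dcp2, an alternative chosen after seeing the data, 34.2% of the Sfpq peaks were in 3′UTRs, in place of 49.0%. A minimum of 20 reads left no control Ago2 peak of the 8 genes, so it gave no value. Only 5 of the 13 Ago2-let-7a peaks had a score of 10 or more, and 4 of these 5 were dismissed.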

Other observations

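The Dcp2 3′UTR carried more Sfpq peaks than its gene symbol shows. Another 3 Sfpq peaks on the same strand, with scores of 9 to 12 and 500 nt in all, lay inside the annotated Dcp2 3′UTR but were listed under the neighbouring gene Mcc. With them, Sfpq peaks covered 59.9% of the Dcp2 3′UTR. In the other 3′UTRs the covered share was 32.8% for Ddx6, 20.3% for Cnot6, 16.6% for Cnot7, 2.71% for Cnot1, 2.26% for Cnot6l, 1.07% for Dcp1a and 0% for Pan3.

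Some siSfpq Ago2 peaks credited to the 8 genes lay on the opposite strand: 2 intronic peaks of Dcp1a (15 and 11 reads), a promoter peak of Cnot6l (31 reads) and the Pan3 peak past the transcript end (19 reads). They made up 4 of 56.

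Likeness between genes was taken as the sum of absolute differences over 7 counts of 3′UTR peaks (5 full lists and 2 dismissed sets). The genes nearest to Dcp2 were Slc7a1 (sum 4), Bend4 and Celf1 (7 each, with 4 genes at 7 or less), and those nearest to Ddx6 were Magt1 (2), Impad1 and Rdx (3 each). Nearest to Cnot6 were Efnb2 and Tmem123 (3 each) and Arl8b (4), with 9 genes at 4 or less. Cep97 had the same 7 counts as Cnot6l, and Ptprf and Slc39a14 differed by 1. Zfp148 differed by 1 from Dcp1a. For Cnot7, which has few peaks, 20 genes had the same counts, so its nearest genes have no order.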
